A study of Mus musculus with 6 samples.

Results

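The lung epithelium at mid-gestation is run by a small set of transcription factors, and 10 of them were examined in lungs of mouse embryos with and without Hopx. The genes were Nkx2-1, Foxa1, Foxa2, Gata6, Sox2, Sox9, Etv5, Mycn, Cebpa and Klf5, taken by name and chosen with earlier results of these data known. Every probe set (a group of array probes for 1 transcript) annotated to exactly 1 of these genes was used, which gave 20 of 45037 probe sets and 10 of 18193 named genes. Hopx-null lungs (genotype Hopx -/-, 3 embryos) were set against wild-type lungs (genotype Hopx +/+, 3 embryos), all microdissected at E16.5 (embryonic day). Both genotypes had a mixed strain background and received no treatment that the labels name. The labels do not give the Hopx allele, the litters or the sex of the embryos, and all values are log2 expression values from Affymetrix arrays of whole-lung RNA, 1 array per lung. In whole-lung RNA, fewer cells of a type and less RNA per cell cannot be told apart.

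Nkx2-1, a homeodomain factor, marks the cells of the early foregut that become lung, and it drives surfactant and airway secretory genes together with the forkhead factors Foxa1 and Foxa2 and the zinc-finger factor Gata6. As the airways branch, the growing epithelium divides into a proximal part marked by Sox2, which forms the airways, and distal tips marked by Sox9, which form the alveoli. Both are HMG-box proteins of the Sox family. Fibroblast growth factor signals from the mesenchyme keep the tips growing through Ets-family factors such as Etv5, and Mycn supports proliferation there. Cebpa, a leucine-zipper factor, and Klf5, a Krüppel-like factor, are needed for the epithelium to mature before birth. Hopx itself encodes an atypical homeodomain protein that does not bind DNA and marks type I alveolar cells, the flat cells of gas exchange.

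Some start regions of these genes hold binding motifs of some of the same factor families, and others hold none of those searched. RefSeq (GRCm38.p6) start windows were at hand for 7 of the 10 genes, 10 windows in all, and the 250 bases before each start were searched on both strands for 8 motifs. Forkhead factors were given the motif TGTTTAC, and Sox factors the motif ACAAAG. Nkx2 factors such as Nkx2-1 were given CAAGTG, and Gata factors were given AGATAA. Ets factors such as Etv5 were given CCGGAA, and Mycn the E-box, which is written CACGTG. Cebpa was given TTGCNNAA, and Klf5 was given the letters GGGCGGG. No sequence is shown for Gata6, Sox9 or Klf5. The windows of Foxa1, Sox2 and Etv5 are shown because Foxa1 and Etv5 were the only 2 of these 7 genes with a forkhead motif and because the comparison of proximal with distal factors turns on Sox2. They are written 5′ to 3′ along the gene, with matches in capitals.
Foxa1, chr12:57546112-57546361, minus strand: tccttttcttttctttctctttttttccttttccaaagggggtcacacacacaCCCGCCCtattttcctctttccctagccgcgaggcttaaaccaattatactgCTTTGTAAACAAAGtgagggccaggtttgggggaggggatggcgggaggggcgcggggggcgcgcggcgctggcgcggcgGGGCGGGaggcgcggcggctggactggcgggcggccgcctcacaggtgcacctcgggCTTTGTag
Sox2, chr3:34649745-34649994, plus strand: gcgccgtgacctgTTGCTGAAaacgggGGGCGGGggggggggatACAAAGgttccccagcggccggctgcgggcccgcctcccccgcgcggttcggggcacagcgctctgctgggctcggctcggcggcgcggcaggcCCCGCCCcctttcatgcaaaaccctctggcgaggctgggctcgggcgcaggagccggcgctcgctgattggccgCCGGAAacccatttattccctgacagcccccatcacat
Etv5, chr16:22439571-22439820, minus strand: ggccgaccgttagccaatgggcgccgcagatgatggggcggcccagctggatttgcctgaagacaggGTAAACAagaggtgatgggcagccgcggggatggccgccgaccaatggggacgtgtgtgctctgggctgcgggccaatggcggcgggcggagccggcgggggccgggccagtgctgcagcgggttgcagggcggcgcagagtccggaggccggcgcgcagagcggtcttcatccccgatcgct
In the Foxa1 window a forkhead motif lies between 2 Sox motifs that run in opposite directions, overlaps both of them, and is read as 1 run of capitals. Another Sox motif lies near the end of the window. Of the 2 Klf motifs, 1 lies before that run and the other between it and the last Sox motif. Of 32851 start windows searched the same way, 3.17% held the forkhead motif, 16.46% the Sox motif and 23.4% the Klf motif. The Sox2 window held 1 Sox motif, 1 Ets motif, 1 C/EBP motif and 2 Klf motifs, and the shares of all windows were 12% for Ets and 9.56% for C/EBP. The Etv5 window shown held 1 forkhead motif and none of the other 7 motifs. The other Etv5 window, a Foxa2 window and the windows of Nkx2-1 and Cebpa held none of the 8 motifs. No window of these genes held the Nkx2 motif or the E-box. The remaining shares were 11.6% for Nkx2, 9.99% for Gata and 6.02% for the E-box. These matches describe the letters of the windows and say nothing of whether a factor binds there.

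Hopx was lower at both of its probe sets in all 3 Hopx-null lungs. The s_at probe set read 4.59, 4.59 and 4.96 in Hopx-null replicates 1 to 3, against 10.96, 10.59 and 10.41 in wild-type replicates 1 to 3 (limma with Benjamini-Hochberg over all probe sets, adjusted p = 0.000375). The other probe set read 10.64, 10.35 and 10.47 in Hopx-null lungs, against 12.5, 12.44 and 12.26 in wild-type lungs. That is 0.266 times the wild-type level (limma, adjusted p = 0.0228). Correlations between arrays were 0.991 to 0.995 within a genotype and 0.989 to 0.995 between genotypes. Signal of the Y-linked gene Eif2s3y was high in 2 lungs, both wild-type (11.72 in replicate 2 and 11.56 in replicate 3), and lay at 2.88 to 3.13 in the other 4, so genotype is partly mixed with sex. Those 4 are the 3 Hopx-null lungs and wild-type replicate 1, so every difference given below for the 4 lungs rests on 1 wild-type lung. In control probe sets, the log2 excess of 3′ over 5′ signal was 1.51 for actin and 1.72 for Gapdh in Hopx-null replicate 3, and in the other lungs it was 1.15 to 1.25 and 1.42 to 1.6.

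None of the 10 factors passed the test between the genotypes over all probe sets. Among the 20 probe sets, 0 passed (limma with Benjamini-Hochberg, adjusted p between 0.878 and 0.999), against 0.00444% of all probe sets. That share is 2 probe sets, both of Hopx itself. At an unadjusted p under 0.05 there was 1 of 20, the probe set of Sox2, which is 5% and close to the background of 4.77%. At 3 of the 20, those of Nkx2-1, Foxa1 and Klf5, all Hopx-null lungs lay below all wild-type lungs, where the background for that direction is 4.54% of all probe sets. For the opposite direction, in which 0 of the 20 lay, the background is 5.6%, and for both directions 10.1%. The 3 of 20 are 15%, a count too small to set these genes apart from the rest, and several probe sets share a gene. Taking the brightest probe set of each gene, 7 genes were lower and 3 higher in Hopx-null lungs, with a median log2 difference of -0.16, beside 0.01 over all genes, of which 47.8% were lower.

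**Figure D1:**
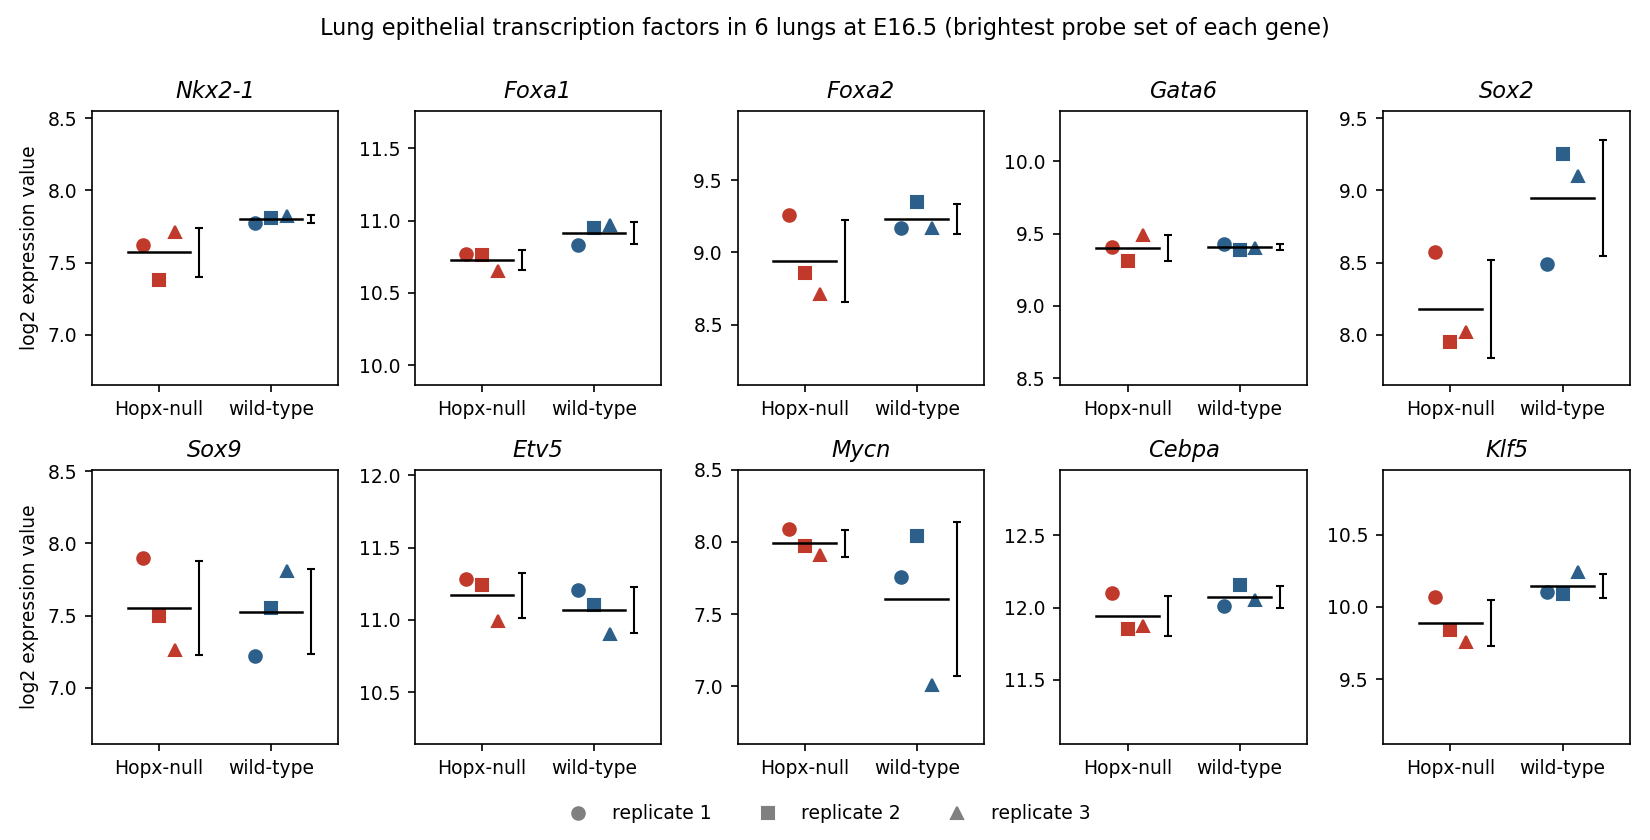
Log2 expression value (y axis) of the brightest probe set of each of the 10 factors in the 3 Hopx-null lungs (red) and the 3 wild-type lungs (blue); horizontal lines are means, vertical bars are SD (n = 3) and every panel spans the same height. Sox2 has the widest range, 7.95 to 9.25, and Gata6 the narrowest, 9.31 to 9.49.

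Among the factors of lung epithelial identity, Nkx2-1 and Foxa1 were separated by genotype without passing the test. Nkx2-1, measured by 1 probe set, read 7.62, 7.38 and 7.71 in Hopx-null replicates 1 to 3, against 7.77, 7.81 and 7.82 in wild-type replicates 1 to 3. All Hopx-null lungs lay below all wild-type lungs, and the wild-type values were nearly equal (SD 0.02, against 0.17 in Hopx-null lungs). The log2 difference was -0.23 (95% interval -0.49 to 0.03, limma, adjusted p = 0.878), or 0.852 times the wild-type level. Its size rests in part on Hopx-null replicate 2, the lowest lung, without which it was -0.13.

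Foxa1, a pioneer factor that opens closed chromatin, had values of 10.77, 10.76 and 10.65 in Hopx-null lungs and 10.83, 10.95 and 10.97 in wild-type lungs. The groups did not overlap, and the gap between the nearest lungs was 0.06, close to the spread within each genotype (SD 0.07 in both). The log2 difference was -0.19 (95% interval -0.40 to 0.02, limma, adjusted p = 0.878). Between the 4 lungs without Y-linked signal it was -0.11. Foxa2, its close relative, which takes part in surfactant gene activation and in restraint of mucous cell fate, read 9.26, 8.86 and 8.71 in Hopx-null lungs and 9.17, 9.35 and 9.17 in wild-type lungs. Here the groups overlapped, since Hopx-null replicate 1 lay above 2 of the wild-type lungs while the other Hopx-null lungs lay below all of them. The log2 difference was -0.28 (95% interval -0.65 to 0.09, limma, adjusted p = 0.878). It was -0.44 without Hopx-null replicate 1 and -0.16 without Hopx-null replicate 3, the lung with the highest 3′ excess.

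Gata6, which acts with Nkx2-1 on surfactant genes and is also made in lung mesenchyme and muscle, was the steadiest of the factors. Its brightest probe set read 9.41, 9.31 and 9.49 in Hopx-null lungs and 9.43, 9.39 and 9.40 in wild-type lungs, a log2 difference of -0.005 (95% interval -0.21 to 0.20, limma, adjusted p = 0.996). The interval bounds any difference at this probe set between 0.865 and 1.15 times the wild-type level. The second probe set differed by -0.009, and the third, which was dim (below 6.69, the median of all probe sets), by -0.15.

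Sox2, the proximal factor, showed the largest difference of the 10 genes, lower in Hopx-null lungs. Its only probe set read 8.57, 7.95 and 8.02 in Hopx-null replicates 1 to 3, against 8.49, 9.25 and 9.10 in wild-type replicates 1 to 3. The groups overlapped at 1 point, because Hopx-null replicate 1 lay just above wild-type replicate 1, while the other Hopx-null lungs lay below all wild-type lungs (SD 0.34 in Hopx-null and 0.41 in wild-type lungs). The log2 difference was -0.77 (SE 0.25, 95% interval -1.36 to -0.18, limma, unadjusted p = 0.0179, adjusted p = 0.878), which is 0.587 times the wild-type level. It ranked 643 of the 45037 probe sets by p.

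The 2 highest Sox2 values belonged to wild-type replicates 2 and 3, the lungs with Y-linked signal. Among the 4 lungs without that signal, the log2 difference was -0.31, and with Eif2s3y as a covariate it was -0.30 (limma, unadjusted p = 0.316). The unadjusted p was above 0.05 without Hopx-null replicate 2 (limma, 0.0624), Hopx-null replicate 3 (0.0627), wild-type replicate 2 (0.0579) or wild-type replicate 3 (0.0557). Sex and genotype cannot be told apart for this gene beyond these values. Wild-type replicates 2 and 3 also had the highest means of the 14 cartilage markers. Those means were 7.23 and 7.43, against 5.58 to 6.28 in the other 4 lungs. The part of cartilage in the Sox2 difference was not tested.

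Sox9, the mark of the distal tips, varied between lungs of the same genotype far more than its means differed. The brightest of its 3 probe sets read 7.90, 7.50 and 7.26 in Hopx-null lungs and 7.22, 7.55 and 7.81 in wild-type lungs. The 2 genotypes covered the same range. The log2 difference was 0.024 (95% interval -0.48 to 0.53, limma, adjusted p = 0.989), so differences of up to about 1.44 times upward or 0.718 times downward remain within the error. It was 0.33 between the 4 lungs without Y-linked signal and 0.34 with Eif2s3y as a covariate, and with 1 lung left out it ranged from -0.15 to 0.17. Its 2 dim probe sets differed by 0.032 and -0.002, and the dimmer of them lay below the lower quartile of all probe sets (4.29), near background. Sox9 also specifies cartilage, which surrounds the large airways. The 14 cartilage markers averaged 6.04, 5.58 and 6.28 in Hopx-null lungs and 5.61, 7.23 and 7.43 in wild-type lungs, 12 of them lower in Hopx-null lungs. Hopx-null replicate 1 had the highest Sox9 value with a cartilage mean of 6.04. Wild-type replicate 3 had the next Sox9 value with the highest cartilage mean, and wild-type replicate 1 the lowest Sox9 value with a cartilage mean of 5.61. The part of cartilage in the Sox9 signal was not tested.

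Etv5, an effector of fibroblast growth factor signalling, had 3 probe sets, all brighter than the median and all slightly higher in Hopx-null lungs. The brightest read 11.28, 11.24 and 10.99 in Hopx-null lungs and 11.21, 11.10 and 10.90 in wild-type lungs, which overlap (log2 difference 0.10, 95% interval -0.20 to 0.40). The s_at probe set differed by 0.21 (95% interval -0.05 to 0.47) and the remaining one by 0.26 (95% interval -0.02 to 0.55), and none of the 3 passed (limma, adjusted p = 0.878 to 0.913). At the brightest probe set the difference was -0.044 between the 4 lungs without Y-linked signal, and single lungs moved it too. Leaving out Hopx-null replicate 1, 2 or 3 gave 0.044, 0.063 or 0.19, and leaving out replicate 1 or 3 of the wild-type lungs gave 0.17 or 0.011. Mycn, a driver of tip cell proliferation, read 8.09, 7.97 and 7.91 in Hopx-null lungs and 7.76, 8.04 and 7.01 in wild-type lungs at its brightest probe set. Wild-type replicate 3 stood 0.75 below the next lung, and the spread was 0.53 (SD) in wild-type and 0.09 in Hopx-null lungs. The log2 difference of 0.38 (95% interval -0.22 to 0.99, limma, adjusted p = 0.878) was 0.087 without that lung, 0.60 without wild-type replicate 2 and 0.23 between the 4 lungs without Y-linked signal. The other 2 Mycn probe sets, both dim, differed by 0.031 and -0.14, so the probe sets of this gene disagree in direction. The probe set at -0.14 lay below the lower quartile of all probe sets, near background.

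Cebpa, which promotes alveolar type II cell maturation, was measured by 1 probe set and read 12.10, 11.85 and 11.87 in Hopx-null lungs and 12.01, 12.16 and 12.05 in wild-type lungs. Hopx-null replicate 1 lay within the wild-type range and the other Hopx-null lungs below it, with a log2 difference of -0.13 (95% interval -0.38 to 0.12, limma, adjusted p = 0.882). Leaving out Hopx-null replicate 1 or 2 gave -0.21 or -0.084, leaving out wild-type replicate 2 gave -0.086, and the 4 lungs without Y-linked signal gave -0.063. Klf5, which acts in the perinatal maturation of the respiratory epithelium, read 10.07, 9.84 and 9.76 in Hopx-null lungs and 10.10, 10.09 and 10.24 in wild-type lungs at its brightest probe set. The groups did not overlap there, by a margin of 0.02 between the nearest lungs. The log2 difference was -0.26 (95% interval -0.52 to 0.01, limma, adjusted p = 0.878), and both dim Klf5 probe sets pointed the same way at -0.20 and -0.19.

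**Figure D2:**
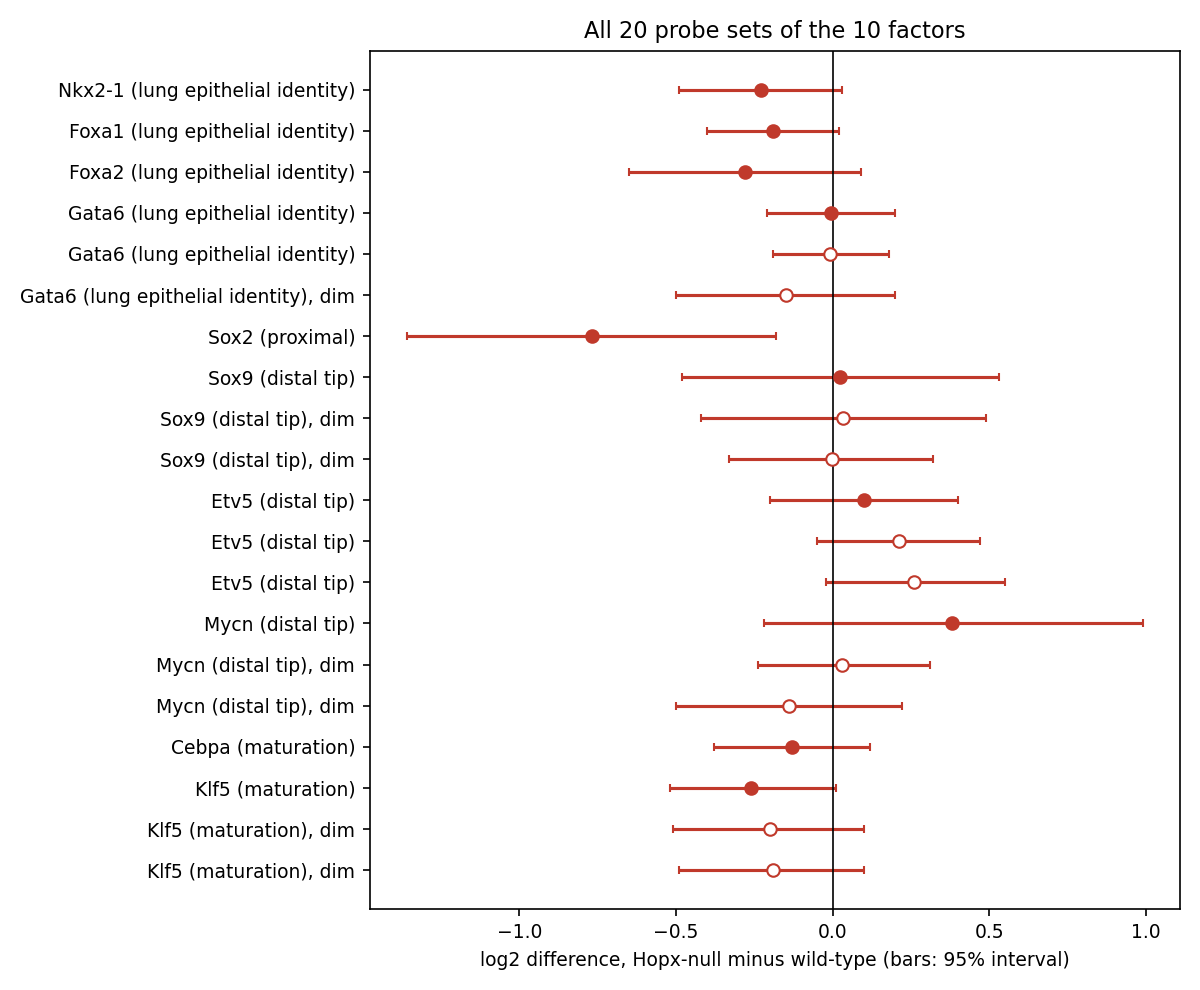
Log2 difference, Hopx-null minus wild-type (x axis), with the 95% interval of the limma fit for all 20 probe sets; filled points are the brightest probe set of a gene and dim ones lie below the median of all probe sets. Only the interval of Sox2, -1.36 to -0.18, excludes 0, and it does so without adjustment for the number of probe sets.

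Proximal and distal factors were then compared within each lung by taking the log2 value of Sox2 minus that of Sox9. The size of such a difference depends on the 2 probe sets, so only its change between lungs is meaningful. It was 0.67, 0.45 and 0.76 in Hopx-null replicates 1 to 3, against 1.27, 1.70 and 1.29 in wild-type replicates 1 to 3. All 3 Hopx-null lungs lay below all 3 wild-type lungs. The means were 0.63 ± 0.16 in Hopx-null and 1.42 ± 0.24 in wild-type lungs (SD, n = 3 each), a change of -0.79 (SE 0.17). An exact two-sided permutation test gave p = 0.1, the smallest that 3 against 3 lungs allow.

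Against the mean of Sox9, Etv5 and Mycn, Sox2 stood at -0.52, -0.95 and -0.70 in Hopx-null lungs and at -0.24, 0.35 and 0.53 in wild-type lungs. These groups did not overlap either, with a change of -0.94 (SE 0.27) and an exact two-sided permutation p of 0.1. Both comparisons kept 0.1 after Benjamini-Hochberg adjustment over the 2, and neither passed 0.05. In wild-type replicate 1, the wild-type lung without Y-linked signal, the first difference was 1.27 and still above the 3 Hopx-null lungs. The change between the 4 lungs without that signal was -0.64 for Sox9 and -0.48 for the mean of the 3 distal factors, which over all 6 lungs was -0.94. In those 4 lungs Sox2 itself differed by -0.31 and Sox9 by 0.33, so both genes enter the -0.64 about equally. That split rests on wild-type replicate 1 alone as the wild-type side. Sox2 alone overlapped between the genotypes while its difference from Sox9 did not, because Hopx-null replicate 1 and wild-type replicate 1 had nearly the same Sox2 value but the highest and the lowest Sox9 value of the 6 lungs.

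**Figure D3:**
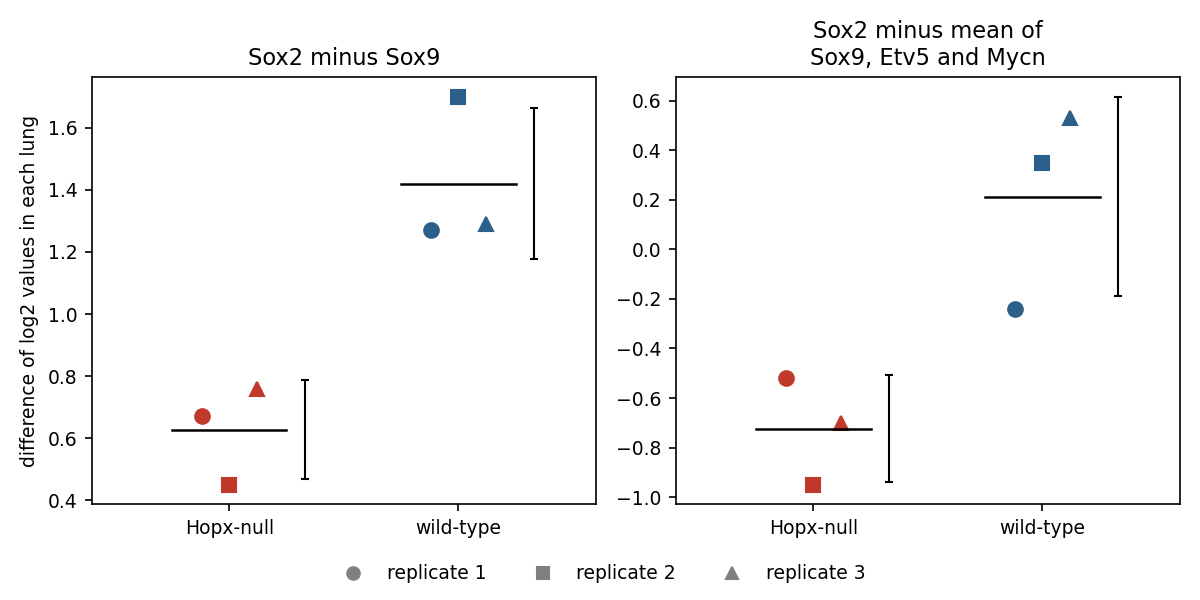
Difference of log2 values within each lung (y axis), Sox2 minus Sox9 on the left and Sox2 minus the mean of Sox9, Etv5 and Mycn on the right, in Hopx-null (red) and wild-type (blue) lungs; lines are means and bars SD (n = 3). On the left, Hopx-null lungs lie at 0.45 to 0.76 and wild-type lungs at 1.27 to 1.70, without overlap.

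The genes whose pattern over the 6 lungs was most like that of Sox2 were sought among 2066 genes brighter than the median with an SD of at least 0.25. With so many candidates and 6 lungs, high correlations arise for any gene, and they are given as a description. The nearest were the zinc-finger gene Zfp52 (r = 0.985), Ehf (r = 0.98), Mis12 (r = 0.964), Zfp944 (r = 0.963) and Lig4 (r = 0.958). Ehf encodes an Ets-family factor of epithelia and is made in airway epithelium. It read 8.28, 7.92 and 7.89 in Hopx-null lungs and 8.17, 8.99 and 8.97 in wild-type lungs, with the same 2 wild-type lungs on top (log2 difference -0.68, limma, adjusted p = 0.878). Mis12 works at the kinetochore and Lig4 in the joining of DNA ends. For Sox9 the nearest genes were Prox1 (r = 0.930), a homeobox factor of lymphatic endothelium, Gprin3 (r = 0.909), Lta4h (r = 0.905), an enzyme of leukotriene synthesis, Gchfr (r = 0.881) and Enc1 (r = 0.869). None of these 10 genes passed the test.

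**Figure D4:**
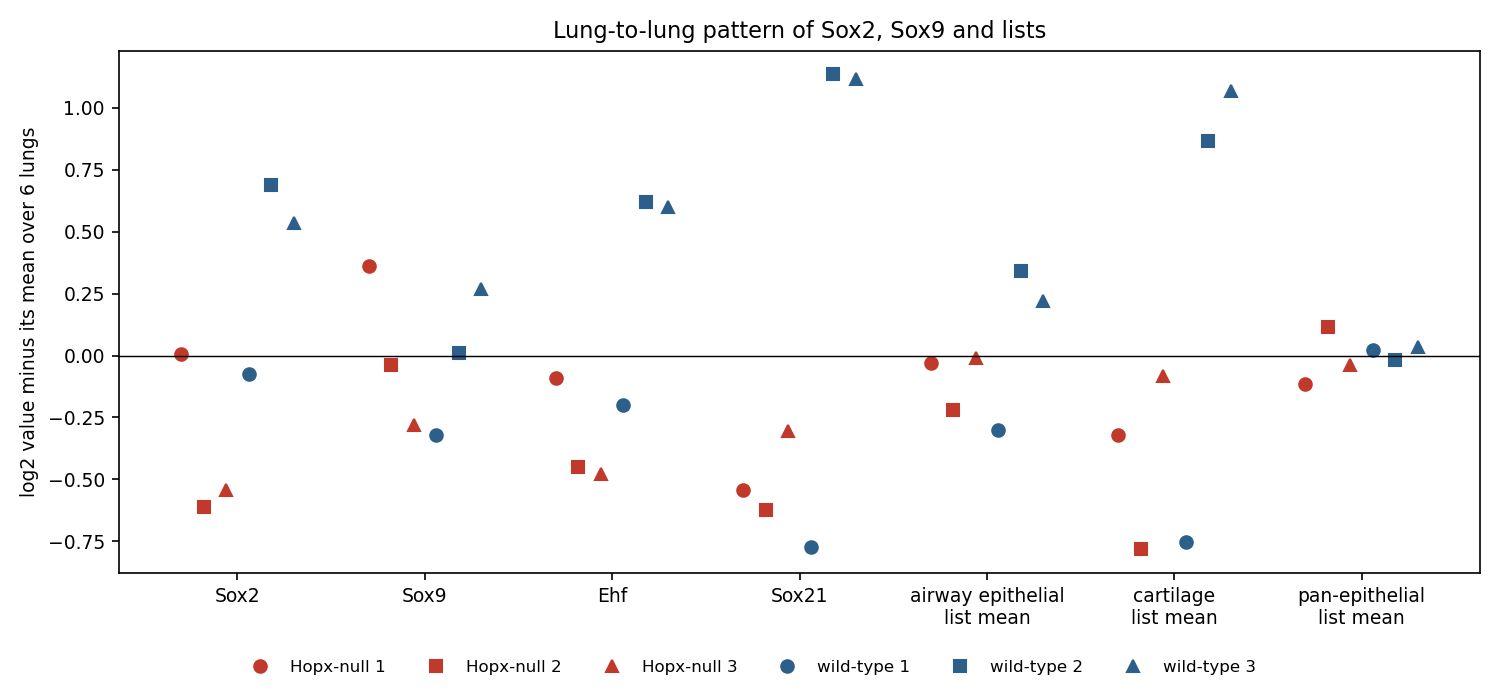
Log2 value minus its mean over the 6 lungs (y axis) for Sox2, Sox9, Ehf, Sox21 and the mean of 3 gene lists in each lung, Hopx-null in red and wild-type in blue. Wild-type replicates 2 and 3 are the highest lungs for Sox2, Ehf, Sox21, the airway list and the cartilage list, and for Sox9 and the pan-epithelial list they are not.

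Markers of all epithelia were examined to see whether the amount of epithelium varied with the factors. The 15 markers, among them Epcam and Cdh1, averaged 10.41, 10.64 and 10.49 in Hopx-null lungs and 10.55, 10.51 and 10.56 in wild-type lungs, with 0 called. Of these markers, 10 were lower and 5 higher in Hopx-null lungs, with a median log2 difference of -0.06. Rab25 (-0.25) and Krt18 (-0.23) were among the lower ones, and Cldn6 (0.40) and Cldn4 (0.18), both dim, among the higher ones. The list means overlapped between genotypes, and with the list mean as a covariate the log2 difference of Sox2 was -0.85. Markers of other organs that use these factors were weak in every lung. Of 4 measured thyroid markers, where Nkx2-1 and Foxa factors are active, and 6 liver and gut markers, 0 were brighter than the median of all probe sets. Cardiac muscle markers, where Gata6 is also active, averaged 10.10 to 10.42 in Hopx-null lungs and 9.78 to 10.50 in wild-type lungs, with 6 of 8 above that median, so heart muscle signal was present in both genotypes. Nkx2-5, the defining factor of heart muscle, lay below the lower quartile. Smooth muscle markers averaged 10.01 to 10.20 in Hopx-null and 9.93 to 10.24 in wild-type lungs, and lung mesenchyme markers 10.76 to 11.04 in Hopx-null and 10.80 to 10.87 in wild-type lungs. Macrophage markers, relevant to Cebpa, averaged 9.71 to 9.92 in Hopx-null and 9.64 to 9.81 in wild-type lungs. Neural and Schwann cell markers averaged 6.62 to 7.12 in Hopx-null and 6.68 to 7.30 in wild-type lungs, and squamous and oesophageal markers, where Sox2 is strong, 5.24 to 5.31 in Hopx-null and 5.16 to 5.50 in wild-type lungs. Both of these lists were highest in wild-type replicates 2 and 3, as Sox2 was, and their part in the Sox2 difference was not tested.

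Genes that act with the 10 factors did not pass the test either. Over 7 lists with 96 different measured genes, 0 passed (limma with Benjamini-Hochberg, smallest adjusted p = 0.878) and 4 had an unadjusted p under 0.05, or 4.17%. Over the brightest probe sets of all genes the share was 4.54%. List medians lay between -0.09 and 0.09 on the log2 scale, beside 0.01 over all genes.

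The airway epithelial list, which holds genes found downstream of Sox2 or in the cells that it forms, had 10 of 14 measured genes lower in Hopx-null lungs, a median of -0.08 and 0 called. The largest differences were in Sox21, a Sox-family factor of airway epithelium, in the secretoglobin Scgb3a1 and in Trp63, the p63 factor of basal cells. Sox21 read 5.08, 5.0 and 5.32 in Hopx-null lungs and 4.85, 6.76 and 6.74 in wild-type lungs. Like Sox2, it was high only in wild-type replicates 2 and 3 (log2 difference -0.98, limma, adjusted p = 0.878). Scgb3a1, which spread widely within both genotypes, differed by -0.72 (SE 1.05) and Trp63 by -0.25. Of the other club cell products in the list, Scgb1a1 differed by -0.017, Cyp2f2 by 0.003, Scgb3a2 by -0.089 and Cbr2 by 0.11. Between the 4 lungs without Y-linked signal the median of the airway list was 0.061, in the other direction.

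The distal tip list, without the members themselves, had 8 of 11 genes higher, a median of 0.09 and 0 called. Bmp4, a tip morphogen, read 10.41, 9.84 and 9.91 in Hopx-null lungs and 9.76, 10.34 and 9.05 in wild-type lungs (difference 0.34). Etv4, the partner of Etv5, differed by 0.24 at a dim probe set, and Lin28b by 0.15 below the lower quartile. The median was 0.021 without wild-type replicate 3, the lung that was also lowest in Mycn. The fibroblast growth factor list had 8 of 14 higher with a median of 0.02. The ligand Fgf9 read 7.25, 7.09 and 7.34 in Hopx-null and 7.06, 7.23 and 6.22 in wild-type lungs (difference 0.39), again lowest in wild-type replicate 3. Etv4 is in this list too, and the feedback inhibitor Il17rd differed by 0.22. The feedback genes Spry2 and Dusp6, which follow pathway activity, differed by 0.025 and -0.002.

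Alveolar genes on which Nkx2-1, the Foxa factors, Gata6 and Cebpa act were higher in 13 of 14 members, by a median of 0.09, and 0 were called. Sftpa1, a surfactant protein gene, and Abca3, the lipid transporter of type II cells, each differed by 0.19, and the water channel Aqp5 by 0.18. Without wild-type replicate 1 that median was 0.16, and between the 4 lungs without Y-linked signal it was 0.018. Close family members had 10 of 17 genes lower with a median of -0.09 and 0 called, led by Sox10, a factor of Schwann cells (-0.65), Foxa3 (-0.48) and Gata4 (0.44). Foxa3, the third Foxa gene, read 5.46, 5.36 and 5.56 in Hopx-null and 5.25, 6.48 and 6.10 in wild-type lungs, a dim signal. Wild-type replicates 2 and 3 were its highest lungs, as for Sox2, but unlike Sox2 its value in wild-type replicate 1 lay below all Hopx-null lungs. Other lung epithelial regulators had 9 of 19 higher and a median of -0.03, with Ehf (-0.68), Grhl1 (-0.38) and Foxp4 (0.27) differing most. The Myc-type growth list had 8 of 12 higher and a median of 0.03, with the pyrimidine synthesis enzyme Cad at 0.45, the polyamine enzyme Odc1 at 0.17 and Cdk4 at 0.12.

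**Figure D5:**
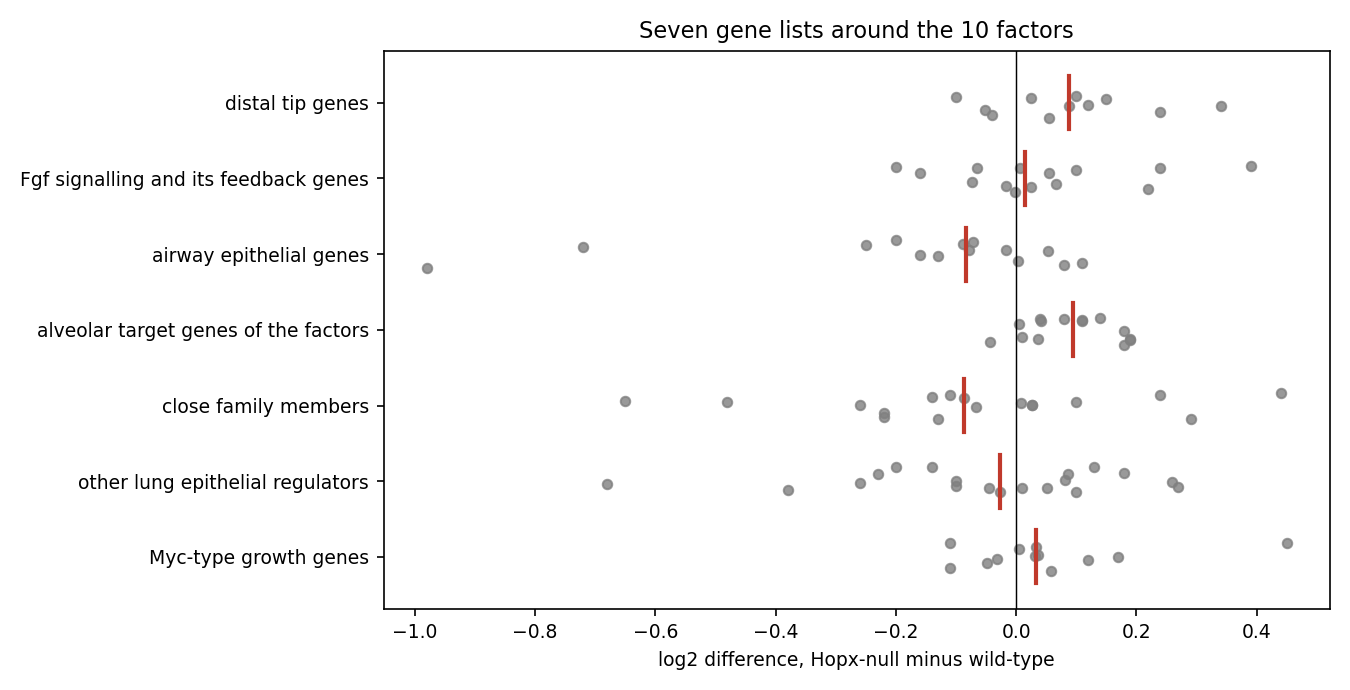
Log2 difference, Hopx-null minus wild-type (x axis), of each measured gene (grey points, vertical scatter for display) in 7 gene lists, with the list median as a red bar. Medians lie between -0.09 and 0.09, and the outlying genes on the left are Sox21, Scgb3a1, Ehf, Sox10 and Foxa3.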

How the data were processed

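Total RNA of 6 lungs was labelled from a poly(T) primer, per the labels' protocols, which favours the 3′ ends of transcripts. Per the submitters' processing notes, the tools named are RMA and Partek 6.6, whose roles are not given. The deposited numbers were taken as log2 values, a base inferred from their range and from RMA. Such values are relative to each array's distribution, so a shift of most transcripts would not show. Of 45101 rows, 64 controls were left out. Of the rest, 34945 carried 1 gene name in the platform annotation, 932 several and 9160 none.

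Genotypes were tested by lmFit and eBayes of limma 3.58.1 (R 4.3.3), adjusted by Benjamini-Hochberg over all 45037 probe sets at a threshold of 0.05, and single values by exact permutation. The procedure was tested on simulated data, and how often small differences would be called is not reported here. The brightest probe set stood for a gene. Every member was named, with the 3 largest differences per list and 5 genes of like pattern for Sox2 and Sox9. Members, lists and comparisons were chosen with earlier results of these data known, and Sox21 and Foxa3 were described by lung after their values were seen, as were Scgb1a1, Scgb3a2, Cyp2f2, Cbr2, Spry2 and Dusp6. The labels call the lungs biological replicates without naming litters, so p-values measure only the spread between these lungs. The number of arrays limits the precision. Alternatives covered normalization, dim probe sets, variance model, array weights, replicate numbers, covariates, and each lung left out.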

Additional observations from a re-analysis of the deposited data

How the results depend on the processing

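Under the alternatives, 0 of 160 recomputed values of the 10 factors passed (limma with Benjamini-Hochberg, smallest adjusted p = 0.485), and 152 kept their direction. The other 8 were differences near 0. Gata6 turned to 0.042 when Hopx-null replicate 2 was left out and to 0.0058 when wild-type replicate 1 was, and ranged down to -0.049 with other lungs left out. Sox9 was -0.0075 after repeated quantile normalization, -0.012 with pan-epithelial markers as a covariate, -0.15 when Hopx-null replicate 1 was left out and -0.13 when wild-type replicate 1 was, with up to 0.17 when others were, and it was 0.34 with Y-linked signal as a covariate and 0.33 in the 4 lungs without it. Etv5 was -0.05 with Y-linked signal as a covariate and -0.044 in the 4 lungs without it, a setting added after seeing the data. The cause was not tested in any of these. The number of member probe sets called was 0 in every alternative, also with a threshold of 0.1. At an unadjusted p under 0.05 it was 0 without Hopx-null replicate 2 or wild-type replicate 3 and 4 without Hopx-null replicate 1. Over all probe sets, 2 calls became 12 without Hopx-null replicate 1, 23 without wild-type replicate 1 and 1 or 2 in the other settings. Leaving out 1 lung, Sox2 ranged from -1 to -0.62, its change against Sox9 from -0.87 to -0.65 and that against the distal mean from -1.17 to -0.78. With the mean of all probe sets these 2 changes were -0.79 and -0.87. Leaving out 1 lung, list medians ranged from 0.021 to 0.1 (distal tip), 0.0032 to 0.049 (fibroblast growth factor), -0.17 to -0.0045 (airway), 0.047 to 0.16 (alveolar), -0.13 to -0.013 (family members), -0.047 to 0.015 (other regulators) and -0.021 to 0.067 (Myc-type growth). In the 4 lungs without Y-linked signal they were 0.061 (airway), 0.018 (alveolar), -0.029 (family members), 0.078 (other regulators) and 0.11 (Myc-type growth). Same-numbered lungs deviated with correlations of -0.096, -0.121 and 0.183, and lungs of unlike number with -0.148 to 0.237. Because the labels name no litters, these values cannot decide whether the numbers pair the lungs. With the replicate block 0 member probe sets passed and Sox2 stayed at -0.77. The change of Sox2 against Sox9 stayed at -0.79 there (exact sign-flip p = 0.25, the smallest possible for 3 pairs). Dim probe sets of Sox9, Mycn, Klf5 and Gata6 limit what can be said of those transcripts.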
